A study of Mus musculus with 20 samples.

Results

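All sorted microglia of 9-month-old APP-KI mice were compared with those of WT mice across all genes. Sorted here means gated as CD45mid CD11b+ cells from papain-digested brain, with no selection on the complement receptor C3aR. The members were 6 of the 20 libraries of the series, 3 of WT (replicates 4 to 6) and 3 of APP-KI (replicates 4 to 6), chosen by the genotype and replicate in their labels. APP-KI mice carry the APP NL-G-F knock-in, in which the mouse's own App gene has a humanized Aβ sequence and several familial Alzheimer disease mutations, so that Aβ plaques form without overexpression of App. All groups used were C57BL/6 mice of the same age, and the study bred WT, APP-KI, C3aR-KO and APP-KI; C3aR-KO mice as littermates. The 14 libraries not selected on C3aR were fitted together, including 3 of C3aR-KO and 5 of APP-KI; C3aR-KO mice, which lack C3ar1. Another 6 libraries, 3 WT C3aR+ and 3 APP-KI C3aR+, came from a separate cross with a Td-tomato reporter in the C3ar1 gene and were sorted on Td-tomato. C3ar1 went against the label in the WT libraries of that sort. Its scaled values (explained below) were 63.1 ± 22.8 (SD, n = 3) in WT C3aR+, against 315 ± 34.6 (n = 3) in WT not selected on C3aR and 57.8 ± 15.6 (n = 3) in C3aR-KO, and 278 ± 93.7 (n = 3) in APP-KI C3aR+. In what follows, C3aR-positive means libraries so labelled, and each direction drawn from them rests on those labels. The labels give neither sex nor animal for a library, and do not say whether mice were pooled. The p-values therefore measure the spread between libraries as labelled.

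Microglia are the resident macrophages of the brain. In mice with Aβ plaques, the cells that touch plaques are known to lower the genes of the resting state, such as P2ry12 and Tmem119, and to raise a program that depends in part on the lipid receptor TREM2 and its adaptor TYROBP and that includes Apoe, Cst7, Itgax and Spp1. A bulk library of all sorted microglia mixes such cells with those far from plaques. Here and in every result below, a larger share of cells of one kind and more RNA of a gene per cell cannot be told apart.

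Library size ran from 67797280 to 76607863 reads in WT and from 44418448 to 55721648 reads in APP-KI. All values are scaled values, that is, reads of a gene over the upper quartile (75th percentile) of all genes' reads in that library, times a constant. They are not divided by gene length and compare libraries, not genes. The 3 APP-KI libraries differed more among themselves than the 3 WT libraries. Over 8923 genes with a mean of at least 10, the SD of a library's log2 difference from the other 2 of its genotype was 0.80, 0.44 and 0.52 in APP-KI 4, 5 and 6, against 0.28, 0.18 and 0.22 in WT 4, 5 and 6. APP-KI 4 had reads on 13248 of 21315 genes listed and was at 0 for 25 genes that had at least 10 in each of the other 5 libraries, where no other library had any such gene. APP-KI 5 had reads on 21210 genes (99.5%), and WT libraries on between 15547 and 16626. On the first principal component of the tested genes (54.5% of the variance) APP-KI 4 lay at 93.6 and the other 5 libraries between -29.1 and -4.96. The second component (29.7%) held WT between -31.0 and -16.0, APP-KI 4 at -13.6, APP-KI 6 at 21.3 and APP-KI 5 at 61.0. The scaled values of 4 Y-linked genes summed to between 81.9 and 96.8 in WT 4, APP-KI 5 and APP-KI 6 and to at most 0.189 in WT 5, WT 6 and APP-KI 4. Library numbers put WT 4, APP-KI 4 and APP-KI 5 in one series (B) and WT 5, WT 6 and APP-KI 6 in another (C), so within series C the Y-linked level and the genotype cannot be told apart.

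**Figure D1:**
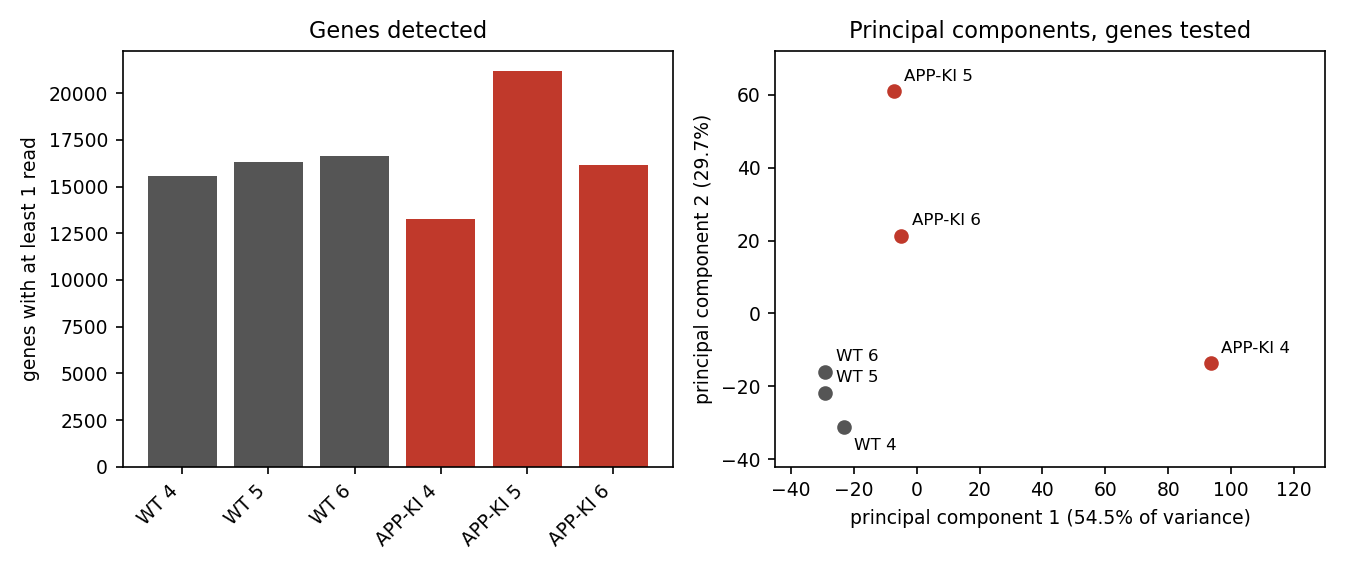
Left, the number of genes with at least 1 read in each of the 6 libraries. Right, their positions on the first 2 principal components of log2(scaled value + 1), with the share of variance on each axis. WT is gray and APP-KI red, and APP-KI 4 and APP-KI 5 stand apart from the other libraries on the first and the second component.

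Defining markers of microglia were high in every library. Their 10 genes summed to between 29249 and 32011 in WT and to 12413, 20515 and 25850 in APP-KI 4, 5 and 6, and none of the 10 was at 0. Markers of neurons summed to at most 43.0, those of astrocytes to at most 384, those of oligodendrocytes to at most 239.7 and those of T, B and NK cells to at most 90.7 in any of the 6 libraries. Only 2 of 10 neuronal, 8 of 10 astrocyte, 6 of 10 oligodendrocyte and 6 of 11 lymphocyte markers had enough reads to be tested. None of those tested was called, and the others could not be. In APP-KI 5, where the sums for these cell types were highest, no marker was at 0. In APP-KI 4, 8 of 10 neuronal markers and 5 of 11 lymphocyte markers were at 0. Monocyte and neutrophil markers ranged from 35.7 in APP-KI 4 to 809 in WT 6 and overlapped between the genotypes.

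App itself did not pass the test in microglia. Its scaled values were 457, 434 and 439 in WT and 257, 379 and 527 in APP-KI, and the 2 groups overlapped (log2 fold change -0.13, SE 0.25, adjusted p = 0.967 by limma). The knock-in changes the coding sequence of App at its own locus, and the reads per gene cannot show that change, so App is no check of the labels here. C3ar1, the gene of the receptor on which the study turned, was at 275, 329 and 339 in WT and 165, 315 and 387 in APP-KI. Its groups overlapped too (log2 fold change -0.13, SE 0.27, adjusted p = 0.972 by limma). In both genes APP-KI 4 was the lowest and APP-KI 6 the highest of the 6 libraries, so that the APP-KI libraries lay on both sides of WT.

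In APP-KI microglia, 275 genes were higher and 239 lower than in WT. These are 2.22% and 1.93% of the 12402 genes tested and 4.14% together, called by limma on log2(scaled value + 1) at a Benjamini-Hochberg adjusted p-value under 0.05, with the library series as a term. At an unadjusted p-value under 0.05, 738 genes (5.95%) were higher and 805 (6.49%) lower. The rises were larger than the falls. The median was 2.06 on the log2 scale among genes that rose, -0.96 among those that fell and -0.01 among all genes tested. Rises of at least 3 on the log2 scale were found in 60 genes and falls of that size in 4. Without regard to the test, the 3 APP-KI libraries lay all above the 3 WT libraries in 12.9% of genes and all below them in 16.4%, and 269 of the 275 and 236 of the 239 called genes were among these. Every called gene had the same direction in series B (1 WT and 2 APP-KI libraries) and in series C (2 WT and 1 APP-KI library) taken alone. The genes were called on these same libraries. Their direction by series and their lack of overlap were thus largely fixed in advance and are no replication. The counts depended on single libraries. They were 152 higher and 66 lower without WT 4, 181 and 100 without WT 5, 193 and 124 without WT 6, 172 and 100 without APP-KI 6, and 415 and 422 without APP-KI; C3aR-KO replicate 1. They depended on the fit as well, with 845 and 845 under library weights, and with 116 lower from the 6 libraries alone, 117 lower without a trend and 155 lower without a filter. In data simulated with this design and 12173 genes, the test found 24% of genes changed by 1 and 57% of genes changed by 2 on the log2 scale, so that a gene not called here may still have changed. Where a named gene lost its call on leaving out 1 library, those libraries are given beside it, with the highest adjusted p (limma) over the 14 fits. The list counts below are to be read beside the shares over all genes tested, 2.22% called higher and 1.93% called lower. For all 3 APP-KI libraries above or below WT, these shares are 12.9% and 16.4%.

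**Figure D2:**
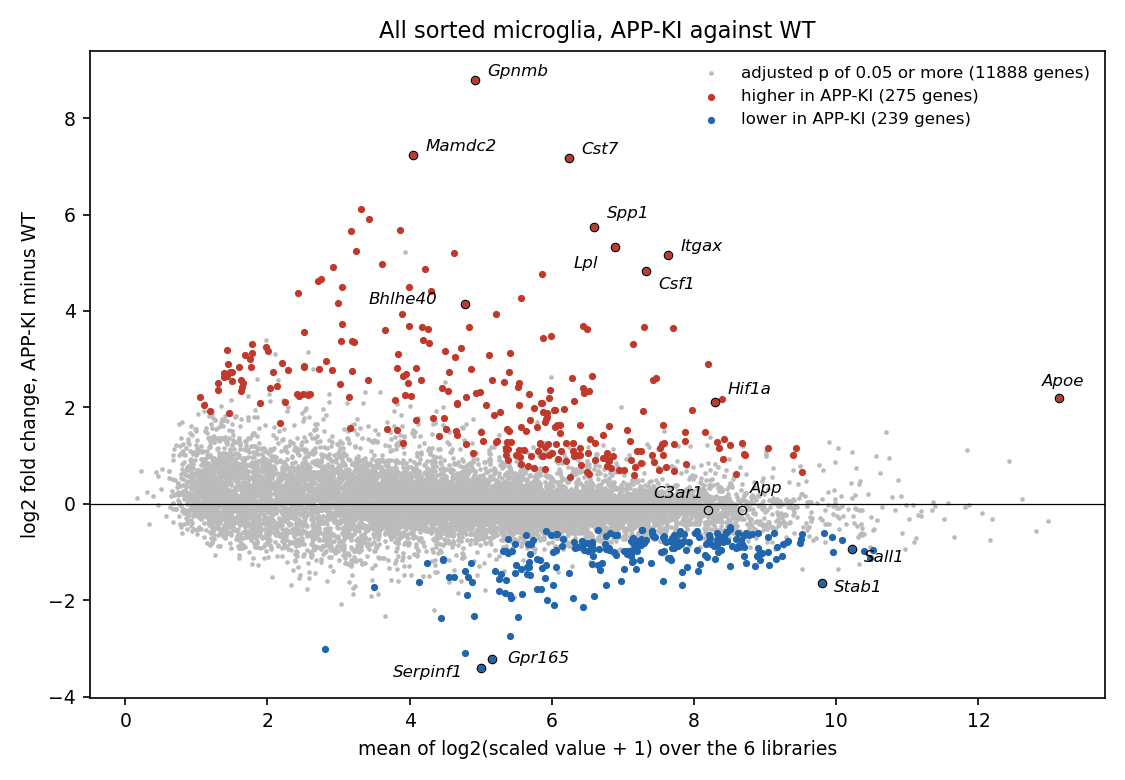
Each point is 1 of the 12402 genes tested, with the mean of log2(scaled value + 1) over the 6 libraries on the horizontal axis and the log2 fold change, APP-KI minus WT, on the vertical axis. The 275 genes in red rose and the 239 in blue fell at an adjusted p-value under 0.05, and Gpnmb lies highest at 8.79.

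The called genes were looked up in 2 other contrasts, in libraries other than the 6 compared. Those of mice without C3ar1 were part of the same fit and helped to set its spread, and those labelled C3aR+ were fitted apart. In C3aR-positive microglia, a separate cross and sort, 272 of the 275 genes that rose had the same direction and 260 of them (94.5%) were also called higher, against 13% of all genes tested there. All 239 genes that fell had the same direction there and 214 of them (89.5%) were called, against 9.71% of all genes. In mice without C3ar1, 274 of the 275 had the same direction and 247 (89.8%) were called higher in APP-KI; C3aR-KO against C3aR-KO, against 3.96%. Of the 239, all had the same direction there and 166 (69.5%) were called, against 2.98%. Read the other way, the genes called here made up 16.2% of the genes called higher and 17.9% of those called lower in C3aR-positive microglia. They made up 50.3% of the 491 genes called higher in mice without C3ar1. The exceptions in direction were Tgfb2, Acacb and Ablim1 in C3aR-positive microglia, and Ablim1 in mice without C3ar1. Tgfb2, a TGF-β ligand, had a log2 fold change of 2.24 in all sorted microglia, 3.25 in mice without C3ar1 and -1.50 in C3aR-positive microglia (adjusted p = 0.204 there by limma). Acacb, an acetyl-CoA carboxylase, had 2.27, 0.10 and -0.56, and Ablim1, an actin-binding protein, 0.74, -0.12 and -0.37 in the same order. Acacb lost its call without WT 4 or 6 or APP-KI 5 or 6 (adjusted p up to 0.228), and Ablim1 lost its call without any WT library, any APP-KI library or 4 of the 8 libraries without C3ar1 (adjusted p up to 0.264).

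**Figure D3:**
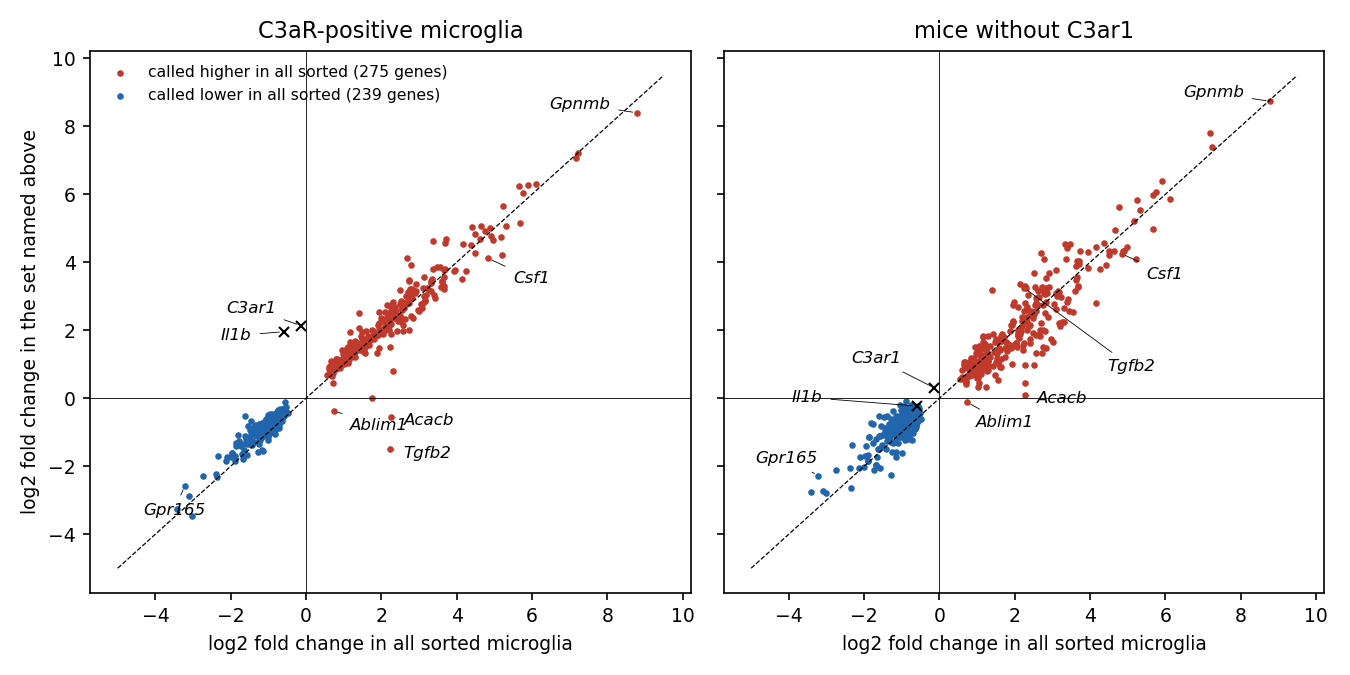
Log2 fold changes of the 514 called genes in all sorted microglia (horizontal axis) and in C3aR-positive microglia or in mice without C3ar1 (vertical axes). The dashed line marks equal values, the genes that rose are red and those that fell blue, and crosses mark C3ar1 and Il1b, which were not called in all sorted microglia.

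The 10 largest rises were those of Gpnmb, Mamdc2, Cst7, Dkk2, Baiap2l2, Spp1, Fabp5, Ctnna3, Lpl and Atp6v0d2, with log2 fold changes from 5.23 to 8.79. All but Spp1, Lpl and Cst7 had a WT mean under 1. Gpnmb (chr6:49036546-49070929, GRCm38), which encodes a transmembrane glycoprotein of lysosomes and the cell surface, was at 0.295, 0.369 and 1.59 in WT and 264, 341 and 1821 in APP-KI (SE 0.46, adjusted p = 4.65e-08 by limma). APP-KI 6 was several times as high as the other 2 APP-KI libraries. Mamdc2 (chr19:23302609-23448442), a proteoglycan of the extracellular matrix, was at 0.148, 0.646 and 0.661 in WT and 155, 163 and 252 in APP-KI (log2 fold change 7.24, adjusted p = 1.65e-09 by limma). Cst7 (chr2:150570415-150578944), cystatin F, an inhibitor of cathepsins in endosomes and lysosomes, was at 4.89, 5.7 and 9.19 in WT and 299, 863 and 1782 in APP-KI (log2 fold change 7.18, adjusted p = 2.81e-07 by limma). For these 3 genes every APP-KI library was far above every WT library, and APP-KI 6 was the highest. Spp1, osteopontin, a secreted phosphoprotein, was at 3.6, 33.5 and 26.1 in WT and 209, 466 and 1943 in APP-KI (log2 fold change 5.75, SE 0.82, adjusted p = 0.000761 by limma), with WT 4 well below the other 2 WT libraries. Dkk2, a secreted modulator of Wnt signaling, rose from 0.329 ± 0.277 to 76.3 ± 21.7 (SD, n = 3 each), and Baiap2l2, a membrane-bending protein, from 0.439 ± 0.232 to 84.5 ± 32.9. Atp6v0d2, a subunit of the vacuolar proton pump, rose from 0.707 ± 0.363 to 56 ± 25.5. Ctnna3, an α-catenin, rose from 0.188 ± 0.23 to 77.9 ± 51.3. Each of the 10 kept its call whichever of the 14 libraries was left out (highest adjusted p by limma 0.013, for Spp1).

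Among the genes that rose, the highest mean scaled values over the 6 libraries were those of Apoe, Ly86, Plek, Pabpc1 and Itgax. Apoe, the main lipid-carrying apolipoprotein of the brain, was at 2949.8, 5638 and 5871 in WT and 13119.9, 14210.2 and 28195 in APP-KI (log2 fold change 2.19, SE 0.42, adjusted p = 0.00707 by limma). Itgax, the integrin CD11c, was at 34.1, 26.9 and 44.6 in WT and 665, 1189 and 1751 in APP-KI (log2 fold change 5.17, adjusted p = 3.6e-07 by limma). Plek, pleckstrin, a substrate of protein kinase C, rose with little spread, from 479 ± 47.8 to 1009 ± 94.4. Pabpc1, the poly(A)-binding protein, rose from 491 ± 62.4 to 942 ± 184 (adjusted p = 0.0407 by limma). Apoe lost its call without WT 4 or APP-KI 6 (adjusted p up to 0.0773), and Pabpc1 lost its call without any WT library, any APP-KI library or 3 of the 8 libraries without C3ar1 (adjusted p up to 0.21).

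**Figure D4:**
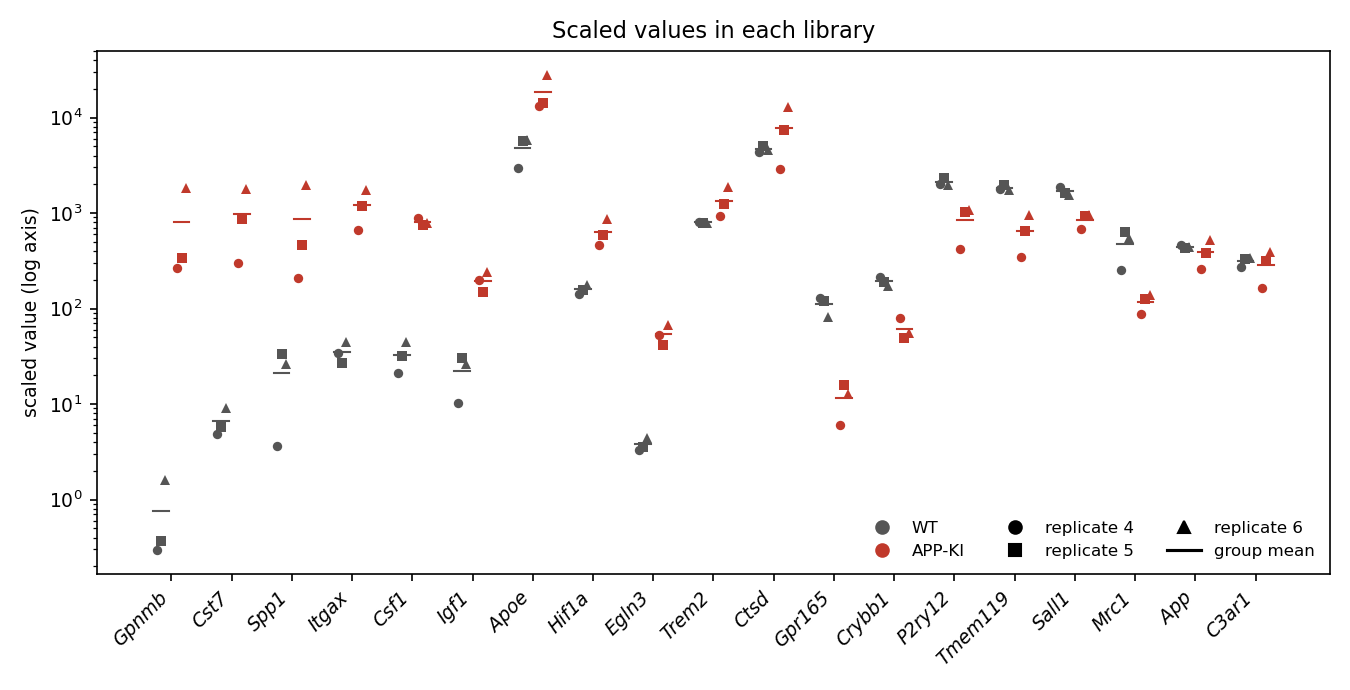
Scaled values (log axis) of 19 genes named in the text in each of the 6 libraries, with WT in gray, APP-KI in red, the replicate as the symbol and the group mean as a line. The values of Gpnmb to Trem2 lie higher in APP-KI in all 3 libraries, those of Gpr165 to Mrc1 lower, and those of Ctsd, App and C3ar1 overlap.

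Of 41 measured genes of the program known from plaque-associated microglia, 20 rose and none fell, with a median log2 fold change of 1.30. All 41 had a positive log2 fold change, and 24 lay above WT in all 3 APP-KI libraries, against 12.9% of all genes. This list, like the others made here, was chosen with earlier results of these data known. Its directions are therefore no independent support for the program. The mean log2 value of the list was 6.71, 7.16 and 7.34 in WT 4, 5 and 6 and 8.41, 9.06 and 9.64 in APP-KI 4, 5 and 6, with no overlap. Ank, a transporter of pyrophosphate and ATP, rose from 63.8 ± 3.24 to 722 ± 343. Axl, a receptor tyrosine kinase for cells that display phosphatidylserine, rose from 134 ± 69.6 to 749 ± 329 (log2 fold change 2.91, adjusted p = 5.38e-05 by limma). Gnas, the stimulatory G-protein α subunit, rose from 80.6 ± 8.23 to 298 ± 43.1. Csf2ra, the α chain of the GM-CSF receptor, rose from 87.7 ± 16.8 to 216 ± 16.4. Cadm1, a cell adhesion molecule, was at 235, 221 and 239 in WT and 363, 442 and 579 in APP-KI (adjusted p = 0.0448 by limma). The other 21 genes of the program did not pass the test, and Clec7a was not analysed here. Csf2ra lost its call without WT 4 (adjusted p up to 0.0812), and Cadm1 lost its call without WT 5 or 6, any APP-KI library or 6 of the 8 libraries without C3ar1 (adjusted p up to 0.183).

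The receptor pair at the head of that program stood at the threshold. Tyrobp, the signaling adaptor of TREM2, was at 337, 419 and 421 in WT and 371, 717 and 1301 in APP-KI. The value in APP-KI 4 lay within the WT range, and the log2 fold change was 1.16 (SE 0.30, adjusted p = 0.0433 by limma). Tyrobp lost its call without WT 5 or 6, APP-KI 5 or 6 or 5 of the 8 libraries without C3ar1 (adjusted p up to 0.259). Trem2 was at 811, 794 and 784 in WT and 924, 1229.5 and 1889.9 in APP-KI, so that its groups did not overlap, but it was not called (log2 fold change 0.86, SE 0.24, adjusted p = 0.0656 by limma). In C3aR-positive microglia the log2 fold changes were 1.95 for Tyrobp and 1.20 for Trem2, both called, and in mice without C3ar1 1.83 and 1.07, both called.

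Lysosomal genes varied more between APP-KI libraries than between genotypes. Of 49 genes for lysosomal enzymes and membrane proteins, 2 rose (Cd63 and Gla) and none fell, where 2.22% of all genes rose and 1.93% fell. The median log2 fold change of the list was 0.17, and 0.04 without APP-KI 5. Their sum was 42430, 48391 and 45410 in WT 4, 5 and 6 and 27388, 49131 and 69527 in APP-KI 4, 5 and 6, so that APP-KI 4 was the lowest and APP-KI 6 the highest of all. Ctsd, the aspartic protease cathepsin D, showed it most plainly, with 4363, 5089.9 and 4569 in WT and 2915, 7326 and 12806 in APP-KI (log2 fold change 0.88, SE 0.54, adjusted p = 0.626 by limma). Ctsl, cathepsin L, did not overlap between the genotypes, at 698, 754 and 806 and 901, 1616 and 2034, and was not called either (adjusted p = 0.0782 by limma). Cd63, a tetraspanin of late endosomes, rose from 70.7 ± 7.06 to 177 ± 110.1 (adjusted p = 0.011 by limma). Gla, α-galactosidase A, rose from 10.9 ± 1.29 to 45.9 ± 27.1, with APP-KI 4 the highest at 77 (adjusted p = 0.0264 by limma). Cd63 lost its call without WT 5 or APP-KI 6 (adjusted p up to 0.121), and Gla lost its call without any WT library or APP-KI 4 or 6 (adjusted p up to 0.215). In C3aR-positive microglia 29 of the 49 genes were called higher and 4 lower, where 13% of all genes were called higher and 9.71% lower.

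Of 39 chemokines, cytokines, growth factors and their receptors tested, 10 rose and none fell, with a median log2 fold change of 0.66. Csf1, a ligand of the microglial survival receptor CSF1R, was at 20.9, 31.7 and 44.5 in WT and 883, 753 and 790.0 in APP-KI (log2 fold change 4.84, SE 0.23, adjusted p = 2.69e-08 by limma). The APP-KI libraries lay close together for this gene and far from WT. Igf1, insulin-like growth factor 1, was at 10.1, 30.0 and 26 in WT and 199, 148 and 239 in APP-KI (log2 fold change 3.48, adjusted p = 8.21e-07 by limma). The chemokines Ccl3, Ccl6 and Ccl4, which draw in leukocytes, had log2 fold changes of 2.64, 2.61 and 1.76. Ccl3 rose from 42.9 ± 17.9 to 217 ± 15.3 and Ccl4 from 37.4 ± 17.3 to 103 ± 13.2 (adjusted p = 0.00189 and 0.0477 by limma). Tnfsf8, the CD30 ligand, rose from 5.23 ± 1.09 to 47.1 ± 10.8, and Tgfb2 from 1.63 ± 0.603 to 10.5 ± 1.68. Cxcr4, the receptor of CXCL12, was called higher at 4.28, 13.2 and 35 in WT and 42.5, 33.2 and 64.7 in APP-KI although WT 6 lay above APP-KI 5 (adjusted p = 0.0241 by limma). Ccl4 lost its call without any WT library, any APP-KI library or 3 of the 8 libraries without C3ar1 (adjusted p up to 0.378), and Tnfsf8 lost its call without any WT library or any APP-KI library (adjusted p up to 0.17). Tgfb2 lost its call without WT 4 or 5 or APP-KI 6 (adjusted p up to 0.122), and Cxcr4 lost its call without WT 4 or 5 or any APP-KI library (adjusted p up to 0.258). The inflammatory cytokines Il1b and Tnf were not called. Il1b was at 30.1, 82.2 and 134 in WT and 31.8, 34 and 56.7 in APP-KI (log2 fold change -0.60, adjusted p = 0.919 by limma), and Tnf at 10.9, 18.9 and 22.8 and 37.9, 20.5 and 23.6 (0.73, adjusted p = 0.461).

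Of 37 genes of matrix, adhesion and motility, 10 rose and 1 (Sema4b) fell, and the list median was 0.43 on the log2 scale. That median depended on single libraries, running from 0.15 to 0.51 over the 14 fits without 1 library. It was 0.15 without APP-KI 5. Plau, the urokinase protease, rose from 129.8 ± 15.4 to 481 ± 38.7 (log2 fold change 1.95, adjusted p = 0.000112 by limma), and its receptor Plaur from 19.3 ± 9 to 118 ± 54.5 (2.41, adjusted p = 0.00594). Plaur lost its call without WT 4 (adjusted p up to 0.0722). The semaphorin and VEGF co-receptors Nrp1 and Nrp2 rose by 1.22 and 0.90 on the log2 scale. Flt1, the VEGF receptor 1, was fixed as an endothelial marker, and was at 9.9, 10.8 and 11.9 in WT and 170.2, 166 and 243 in APP-KI (log2 fold change 4.26, adjusted p = 1.1e-07 by limma). The other 8 endothelial and mural markers tested held no called gene. Cldn5, a tight-junction protein, was at 0.295, 0.646 and 1.03 in WT and 10.3, 3.11 and 1.18 in APP-KI, and the adhesion molecule Pecam1 at 29.9, 37 and 35.8 and 10.6, 20.4 and 6.92. Flt1 made up most of the summed list in APP-KI (222 to 289, against 71.2 to 102 in WT). Of the 9 markers tested, 4, Flt1 included, lay above WT in every APP-KI library and 1 lay below. Over all genes those shares were 12.9% and 16.4%. The list median was 0.67 on the log2 scale, -0.17 without APP-KI 5 and -0.92 in C3aR-positive microglia. The part of endothelial cells in the rise of Flt1 was not tested.

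Oxygen-sensing genes rose in part. HIF-1α is a transcription factor subunit that is degraded when oxygen is plentiful, through hydroxylation by EGLN enzymes and the VHL protein, and that otherwise pairs with ARNT proteins and raises glycolytic genes. Hif1a was at 142, 157 and 178 in WT and 462, 584 and 868 in APP-KI (log2 fold change 2.11, SE 0.27, adjusted p = 0.000283 by limma), and kept its call without any 1 library. Arnt2, a partner subunit, rose from 4.83 ± 0.881 to 62.4 ± 7.02 (log2 fold change 3.62, adjusted p = 8.04e-07 by limma), with APP-KI values between 56.4 and 70.1. Egln3, a HIF prolyl hydroxylase that is itself a known HIF target, was at 3.29, 3.57 and 4.45 in WT and 52.2, 41.2 and 67.8 in APP-KI (log2 fold change 3.70, adjusted p = 0.00172 by limma). The other 7 of 10 HIF subunits and oxygen sensors were not called. The main partner subunit Arnt was at 140.4 ± 10.3 in WT and 127 ± 41 in APP-KI, and Vhl at 77.6, 84.8 and 82.6 and 41.8, 59.7 and 66.5, lower in every APP-KI library without passing the test (log2 fold change -0.48, adjusted p = 0.258 by limma).

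The hypoxia module that the study listed from its C3aR-positive libraries held 10 genes that rose and none that fell of 25 tested, with a median log2 fold change of 0.87. All 25 had a positive log2 fold change and 20 lay above WT in every APP-KI library, against 12.9% of all genes. The mean log2 value of the list was between 4.70 and 4.98 in WT and between 5.99 and 6.27 in APP-KI, with no overlap. Bhlhe40, a transcriptional repressor known to respond to low oxygen, had the largest rise, from 2.9, 6.59 and 8.49 in WT to 78.7, 127 and 144 in APP-KI (log2 fold change 4.15, SE 0.69, adjusted p = 0.0024 by limma). Fzd7, a Wnt receptor, rose from 29 ± 6.8 to 111 ± 8.91. Vegfa, a classical HIF target, was at 6.99, 7.58 and 15.6 in WT and 114, 26.8 and 32 in APP-KI and was not called, with APP-KI 4 far above the other 2 (log2 fold change 2.01, SE 0.68, adjusted p = 0.147 by limma). Bnip3, a mitophagy receptor and HIF target, was at 13.4 ± 0.316 in WT and 22.7 ± 3.83 in APP-KI and was not called (log2 fold change 0.81, SE 0.75, adjusted p = 0.842 by limma). That SE was set over all 14 libraries fitted together, and Bnip3 was at 8.88 ± 8.21 (SD) in C3aR-KO. It is therefore not the spread of the WT and APP-KI libraries alone.

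The promoters of 3 of the oxygen-sensing and glycolytic genes that rose are shown because their letters hold the short core to which HIF is known to bind. Each is the 250 bases before the transcription start in RefSeq (GRCm38.p6), 5′ to 3′ on the gene's strand, with capitals for the core ACGTG or GCGTG on either strand.
Hif1a, chr12:73907617-73907866, plus strand: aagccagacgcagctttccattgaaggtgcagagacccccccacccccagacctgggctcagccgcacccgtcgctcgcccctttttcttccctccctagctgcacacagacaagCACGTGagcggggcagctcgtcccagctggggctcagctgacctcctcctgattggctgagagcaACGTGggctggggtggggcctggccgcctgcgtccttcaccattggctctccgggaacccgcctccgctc
Pgk1, chrX:106186850-106187099, plus strand: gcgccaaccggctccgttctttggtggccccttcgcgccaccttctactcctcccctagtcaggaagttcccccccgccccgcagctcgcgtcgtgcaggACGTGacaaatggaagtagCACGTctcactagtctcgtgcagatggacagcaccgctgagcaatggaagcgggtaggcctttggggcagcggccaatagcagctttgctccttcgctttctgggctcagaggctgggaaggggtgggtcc
Egln3, chr12:54203875-54204124, minus strand: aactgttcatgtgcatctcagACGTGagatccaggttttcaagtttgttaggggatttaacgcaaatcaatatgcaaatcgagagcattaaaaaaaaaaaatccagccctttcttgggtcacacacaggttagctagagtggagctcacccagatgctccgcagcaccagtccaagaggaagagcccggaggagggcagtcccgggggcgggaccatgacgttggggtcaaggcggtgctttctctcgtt
The window of Hif1a held 3 matches, 2 of which overlap as a palindrome, that of Pgk1 held 2 on opposite strands and that of Egln3 held 1. Such a short motif is common: it was found in 54.9% of the 12701 promoter windows of tested genes, in 55.3% of the 282 windows of genes that rose and in 49.5% of the 273 of genes that fell. Among the 29 windows of hypoxia module genes, 22 (75.9%) held it. These are descriptions of letters and not of binding.

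Of 30 glycolytic genes tested, 8 rose, 1 fell and the median log2 fold change was 0.67. Tpi1, triosephosphate isomerase, was at 37.2, 39 and 42.1 in WT and 90.5, 95.3 and 163 in APP-KI (log2 fold change 1.63, SE 0.20, adjusted p = 0.000178 by limma). Gpi1, glucose-6-phosphate isomerase, rose from 128 ± 13.6 to 286 ± 34.4 (log2 fold change 1.25, adjusted p = 7.34e-05 by limma), and these 2 kept their calls without any 1 library. Pgk1, phosphoglycerate kinase, rose from 6.7 ± 0.328 to 20.6 ± 4.13, Pkm, pyruvate kinase, from 232 ± 23.6 to 545 ± 256, and Pfkl, a phosphofructokinase, from 132 ± 6.89 to 225 ± 42.1. Toward lactate, Ldha, lactate dehydrogenase A, was called higher at 77.2, 88.9 and 94.4 and 105, 147 and 233, and Slc16a3, a lactate exporter, at 29, 27.2 and 44.2 and 42, 63.5 and 95.9 with WT 6 above APP-KI 4. Ldhb, the lactate dehydrogenase subunit that favors pyruvate, fell from 308 ± 23.7 to 169.7 ± 44.2 (log2 fold change -0.79, adjusted p = 0.0279 by limma). Pdk1, pyruvate dehydrogenase kinase 1, rose from 95.3 ± 4.09 to 156 ± 14. At the entry of the pathway, the glucose transporter Slc2a1 was at 74.4, 67.6 and 68.3 in WT and 97.1, 117 and 143 in APP-KI and the hexokinase Hk2 at 561, 571 and 552 and 439, 369 and 469.9, in opposite directions and neither called. Pgk1 lost its call without any WT library or APP-KI 6 (adjusted p up to 0.113), and Pkm lost its call without WT 5 or APP-KI 6 (adjusted p up to 0.11). Pfkl lost its call without WT 5 or 6 or APP-KI 6 (adjusted p up to 0.107), and Ldha lost its call without any WT library, APP-KI 5 or 6 or 5 of the 8 libraries without C3ar1 (adjusted p up to 0.263). Slc16a3 lost its call without WT 5 or APP-KI 5 or 6 (adjusted p up to 0.146), and Ldhb lost its call without WT 4 or 5 or APP-KI 4 or 6 (adjusted p up to 0.32). Pdk1 lost its call without WT 4 or APP-KI 6 (adjusted p up to 0.0865).

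Of 13 tested genes of lipid handling that the study listed from its C3aR-positive libraries, 7 rose and none fell, with a median log2 fold change of 1.31. Lpl, lipoprotein lipase, which frees fatty acids from lipoproteins, was at 14.3, 19.5 and 26.6 in WT and 407, 763 and 1041 in APP-KI (log2 fold change 5.32, SE 0.45, adjusted p = 6.23e-06 by limma). The fatty acid-binding proteins Fabp5 and Fabp3 rose from 0.999 ± 0.237 to 111 ± 38.2 and from 0.991 ± 0.421 to 16.3 ± 4.68 (adjusted p = 1.9e-05 and 0.015 by limma). Ch25h, cholesterol 25-hydroxylase, was at 0.886, 2.64 and 1.26 in WT and 20.9, 22.4 and 40.1 in APP-KI (log2 fold change 3.73, adjusted p = 3.35e-05 by limma). The enzymes that store and release cholesteryl esters, Soat1 and Nceh1, both rose, from 179.8 ± 12.6 to 314 ± 46.8 and from 25.6 ± 4.95 to 106 ± 42.8. Plin2, a coat protein of lipid droplets, was at 28.4, 50.5 and 50.1 in WT and 111, 41.7 and 88.6 in APP-KI, with APP-KI 5 within the WT range, and was not called (adjusted p = 0.0982 by limma). In a wider list of 32 genes of lipid transport and LXR targets, 8 rose and 1 fell, and 7 of the 8 were the genes that rose in the shorter list. The other was Myo5a, a vesicle motor, which rose from 142 ± 36.2 to 403 ± 108 (adjusted p = 0.032 by limma). The gene that fell was Abca1, the cholesterol efflux pump and LXR target, from 1434 ± 93.8 to 821 ± 67.4 (log2 fold change -0.75, adjusted p = 0.0286 by limma). Fabp3 lost its call without WT 5 or 6 or APP-KI 4 (adjusted p up to 0.0651), and Soat1 lost its call without any WT library or APP-KI 4 or 6 (adjusted p up to 0.167). Myo5a lost its call without any WT library, APP-KI 4 or 6 or 1 of the 8 libraries without C3ar1 (adjusted p up to 0.31), and Abca1 lost its call without any WT library, APP-KI 5 or 6 or 2 of the 8 libraries without C3ar1 (adjusted p up to 0.272).

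Of 22 genes of cholesterol synthesis and uptake, 1 was called higher, 13 lay above WT in all 3 APP-KI libraries and none below, and the median log2 fold change was 0.66. Over all genes, 2.22% were called higher, 12.9% lay above WT in all 3 APP-KI libraries and 16.4% below. Srebf2, the transcription factor that raises the pathway, was at 65.2, 72.4 and 76.3 in WT and 111, 147 and 143 in APP-KI (log2 fold change 1.03, adjusted p = 0.115 by limma).

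Among 15 genes of MHC class II presentation and costimulation, Cd274 and Cd83 rose and none fell. Cd274, the inhibitory ligand PD-L1, was at 8.45, 8.11 and 8.36 in WT and 68.4, 42.5 and 43.7 in APP-KI (log2 fold change 2.40, SE 0.31, adjusted p = 0.000363 by limma), and Cd83, an activation marker, at 124, 196 and 242 and 601, 341 and 438 (1.48, adjusted p = 0.00165). The class II chaperone Cd74 was higher in every APP-KI library without passing the test, at 667, 1275 and 1409 in WT and 1539, 4605 and 2419 in APP-KI (log2 fold change 1.49, SE 0.48, adjusted p = 0.123 by limma), with APP-KI 5 the highest. Among 19 genes of MHC class I presentation, H2-M3 and H2-Q6 rose, to 89.4 ± 18.6 from 39.6 ± 6.13 and to 69.4 ± 27.5 from 17.3 ± 7.3. H2-Q6 is one of the near-identical H2-Q genes, between which counting can split reads. H2-M3 lost its call without WT 4 (adjusted p up to 0.108), and H2-Q6 lost its call without WT 4 or 6 or APP-KI 4 or 5 (adjusted p up to 0.255). B2m, the shared light chain, was at 909, 1279 and 1055 in WT and 732, 1949 and 2026 in APP-KI and was not called.

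No gene of the type I interferon list was called in either direction. Of 33 tested, 5 lay above WT in all 3 APP-KI libraries and 1 below, where 12.9% and 16.4% of all genes did. The median log2 fold change was 0.22, and 0.10 without APP-KI 5. Ifit3, a classical interferon-stimulated gene, was at 5.3, 22.3 and 13.7 in WT and 1.87, 19.1 and 12.4 in APP-KI (log2 fold change -0.35, adjusted p = 0.966 by limma). In C3aR-positive microglia 22 of the 33 were called higher and none lower, where 13% of all genes were called higher, against 2.22% in all sorted microglia. In mice without C3ar1 none were called higher and 1 lower, where 3.96% and 2.98% of all genes were called. The median of this list in those 2 sets was 1.28 and 0.07.

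Toll-like receptors and inflammasome genes held 1 called gene of 27. The list median was -0.32 on the log2 scale, and 10 of the 27 lay below WT in every APP-KI library, against 16.4% of all genes. The called gene was Ly86, MD-1, a partner of the receptor CD180, which rose from 602 ± 28 to 905 ± 164 (log2 fold change 0.66, adjusted p = 0.0298 by limma). Ly86 lost its call without WT 5 or 6, APP-KI 5 or 6 or 2 of the 8 libraries without C3ar1 (adjusted p up to 0.201). Tlr2 and Tlr4, receptors of bacterial lipoproteins and of lipopolysaccharide, had log2 fold changes of 0.63 and -0.88, neither called (adjusted p = 0.143 and 0.184 by limma). Of 17 complement genes 1 rose, the receptor subunit Itgax, and 2 fell. Cd93, a C1q-related receptor, fell from 45.6 ± 8.42 to 17.7 ± 4.18 and C4b, complement component 4B, from 103 ± 36.8 to 43.7 ± 3.17 (adjusted p = 0.0307 and 0.0477 by limma). Cd93 lost its call without any WT library, APP-KI 4 or 6 or 2 of the 8 libraries without C3ar1 (adjusted p up to 0.148), and C4b lost its call without any WT library, APP-KI 4 or 6 or 4 of the 8 libraries without C3ar1 (adjusted p up to 0.354). C3, the source of the C3a ligand of C3aR, was at 10.7, 6.52 and 100.2 in WT and 43.1, 64.2 and 89.6 in APP-KI, with WT 6 above every APP-KI library, and C1qa, a chain of C1q, at 2567, 3114 and 2922 and 1479, 2567 and 3671.

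**Figure D5:**
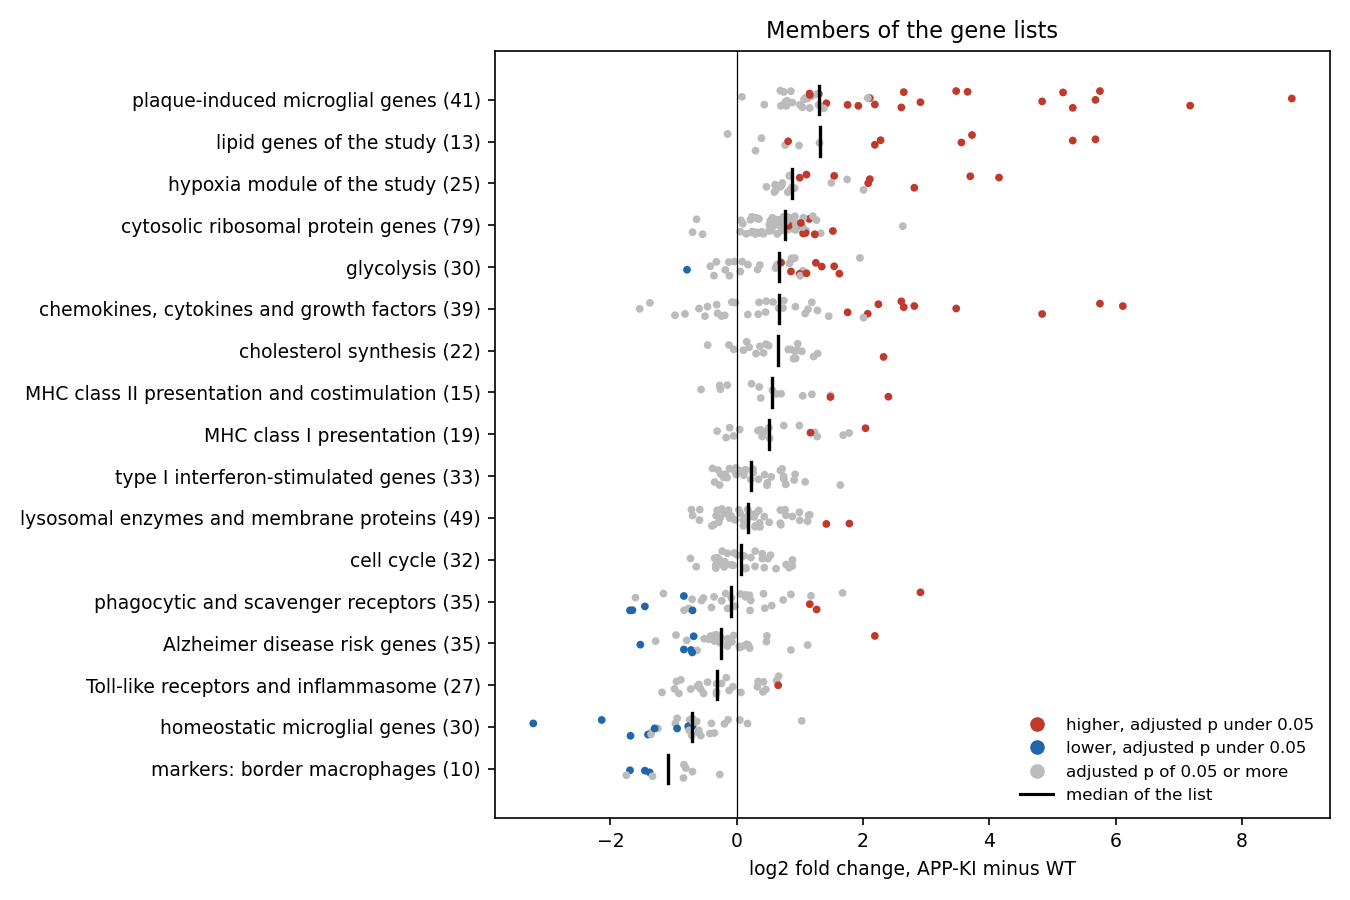
Log2 fold changes, APP-KI minus WT, of the members of 17 gene lists, with the number of members tested in brackets. Red points rose and blue points fell at an adjusted p-value under 0.05, gray points did not pass it, and black bars mark list medians, which run from 1.31 for the lipid genes to -1.09 for the border macrophage markers.

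The 10 largest falls were those of Serpinf1, Gpr165, Tmem44, Ptger3, Sema4b, Hlf, Bank1, Siglece, Ecscr and Tspan18, with log2 fold changes from -3.42 to -2.10. Gpr165 (chrX:96713441-96719388), an orphan receptor, was at 129, 121 and 80.9 in WT and 6, 15.8 and 12.8 in APP-KI (log2 fold change -3.22, SE 0.37, adjusted p = 9.89e-05 by limma). Ptger3, a prostaglandin E2 receptor, was at 24.1, 17.5 and 14.8 in WT and 0, 4.66 and 1.77 in APP-KI, and Serpinf1 (chr11:75409769-75422701), the secreted factor PEDF, at 82.6, 136 and 139.8 and 0, 22.1 and 27.8. Both had no read in APP-KI 4, and their fitted log2 fold changes of -3.02 and -3.42 rest on the pseudocount there. Their adjusted p-values by limma were 0.0241 and 0.0423. Tmem44, a transmembrane protein, fell from 78.3 ± 20.1 to 13.2 ± 12.3, and Sema4b, a semaphorin, from 114 ± 13.3 to 19.4 ± 13.5. Hlf, a transcription factor of the PAR bZIP family, fell from 47.9 ± 12.7 to 9.34 ± 3.92. Bank1, a signaling scaffold best known from B cells, was at 116, 94.3 and 87.3 in WT and 21.9, 25.5 and 15.3 in APP-KI (log2 fold change -2.35, adjusted p = 0.000223 by limma). Siglece, an inhibitory sialic acid receptor, fell from 67.4 ± 4.83 to 15.1 ± 9.77, Ecscr from 180.0 ± 13.3 to 41.2 ± 7.66 and Tspan18, a tetraspanin, from 134 ± 9.56 to 31.6 ± 7.69. Of these 10, Gpr165, Bank1, Ecscr and Tspan18 kept their calls whichever library was left out, with adjusted p-values up to 0.00992 by limma. Tmem44, Sema4b and Siglece lost their calls without WT 4 (adjusted p up to 0.116, 0.0508 and 0.0524), and Hlf lost its call without WT 4 or 5 or APP-KI 4 or 6 (adjusted p up to 0.113). Ptger3 lost its call without any WT library or APP-KI 4 or 6 (adjusted p up to 0.175), and Serpinf1 lost its call without any WT library, APP-KI 6 or 6 of the 8 libraries without C3ar1 (adjusted p up to 0.22).

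Among the genes that fell, Slco2b1, Zfhx3, Soga1, Sall1 and Abca1 had the highest mean scaled values over the 6 libraries. For each of them the 3 APP-KI libraries lay below all of WT. Zfhx3, a large homeodomain transcription factor, was at 2286, 2029 and 1913 in WT and 1025, 899.7 and 988 in APP-KI (log2 fold change -1.12, SE 0.17, adjusted p = 0.00116 by limma). Slco2b1, an organic anion transporter, was at 2109, 2102 and 1962 and 1001, 1068 and 1028 (adjusted p = 0.0109 by limma). Slco2b1 lost its call without WT 4 or APP-KI 6 (adjusted p up to 0.105). Soga1, a regulator of autophagy, was at 1906, 1841 and 1912 and 912, 905 and 1053 (adjusted p = 0.0026 by limma).

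Homeostatic microglial genes were lower in most cases and called in a minority. Of 30, 8 fell and none rose, and the list median was -0.71 on the log2 scale. Of the 30, 23 lay below WT in all 3 APP-KI libraries, against 16.4% of all genes. The mean log2 value of the list was 10.06, 10.10 and 9.99 in WT 4, 5 and 6 and 8.78, 9.20 and 9.43 in APP-KI 4, 5 and 6. Crybb1, a crystallin that marks microglia, was at 216, 188 and 171 in WT and 80.1, 49.1 and 55.8 in APP-KI (log2 fold change -1.68, SE 0.29, adjusted p = 0.0035 by limma), and Nrip1, a nuclear receptor corepressor, at 764, 764 and 671 and 311, 256 and 305 (log2 fold change -1.30, adjusted p = 0.000369). Slc2a5, a fructose transporter, fell from 461 ± 22.6 to 160.1 ± 60.7 and Siglech, a sialic acid-binding lectin, from 1235 ± 58.2 to 788 ± 100.5 (adjusted p = 0.0481 and 0.0328 by limma). Slc2a5 lost its call without any WT library, any APP-KI library or 4 of the 8 libraries without C3ar1 (adjusted p up to 0.381), and Siglech lost its call without any WT library, APP-KI 5 or 6 or 3 of the 8 libraries without C3ar1 (adjusted p up to 0.158). The best known members did not pass the test, although none overlapped between the genotypes. P2ry12, the ADP receptor that guides processes to injury, was at 2002, 2325 and 1982 in WT and 424, 1013 and 1084 in APP-KI (log2 fold change -1.25, SE 0.38, adjusted p = 0.0915 by limma). Tmem119 was at 1783, 1950.4 and 1723 and 344, 647 and 952 (-1.35, SE 0.47, adjusted p = 0.171) and Cx3cr1, the fractalkine receptor, at 6064, 6621 and 6272 and 1909, 4142 and 4557 (-0.75, SE 0.40, adjusted p = 0.521). In each of these 3 genes APP-KI 4 was the lowest library.

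Of 33 microglial transcription factors, 2 rose (Bhlhe40 and Hif1a) and 3 fell. Maf, c-Maf, fell from 814 ± 60.7 to 354 ± 106 (log2 fold change -1.26, SE 0.20, adjusted p = 0.00201 by limma) and kept its call without any 1 library. Sall1, a repressor that sets microglial identity, was at 1875, 1624 and 1543 in WT and 676, 937 and 945 in APP-KI (log2 fold change -0.94, adjusted p = 0.0349 by limma), and Rel, the NF-κB subunit c-Rel, at 164, 139 and 139 and 124, 87.3 and 87.8 (-0.66, adjusted p = 0.0226). Sall1 lost its call without any WT library, APP-KI 4 or 6 or 2 of the 8 libraries without C3ar1 (adjusted p up to 0.316), and Rel lost its call without any WT library or APP-KI 5 or 6 (adjusted p up to 0.131). The lineage factors Spi1 (PU.1), Irf8 and Mef2c had log2 fold changes of -0.35, 0.20 and 0.05 and were not called. Mitf and Tfe3, regulators of lysosomal genes, lay on opposite sides of WT in all 3 libraries, at 191, 119.7 and 131 against 104, 84.8 and 84.2 in WT and at 162, 169 and 157 against 238, 224 and 232, without passing the test (adjusted p = 0.138 and 0.06 by limma).

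Purinergic signaling and ion channels gave 1 rise and 3 falls among 19 genes, where 2.22% of all genes rose and 1.93% fell. Kcnj2, the inward-rectifier potassium channel Kir2.1, was at 82, 73.5 and 64.4 in WT and 377, 369 and 455 in APP-KI (log2 fold change 2.57, SE 0.22, adjusted p = 6.23e-06 by limma). Entpd1 (CD39), which breaks down extracellular ATP, fell from 986 ± 38 to 524 ± 65, the ATP-gated channel P2rx7 from 377 ± 43.8 to 234 ± 7.04 and the adenosine receptor Adora3 from 52.4 ± 4.51 to 32.1 ± 4.08. The log2 fold changes of these 3 were -0.82, -0.65 and -0.73 (adjusted p = 0.0247, 0.0247 and 0.0485 by limma). Entpd1 lost its call without WT 4 or 5 or APP-KI 4 or 6 (adjusted p up to 0.246), and P2rx7 lost its call without any WT library or any APP-KI library (adjusted p up to 0.128). Adora3 lost its call without any WT library, APP-KI 5 or 6 or 4 of the 8 libraries without C3ar1 (adjusted p up to 0.287). Among 22 genes of the TGF-β pathway, on which homeostatic microglia are known to depend, Tgfb2 alone was called. Of the 22, 8 lay below WT in every APP-KI library, against 16.4% of all genes. The receptor Tgfbr1 was at 2340.4, 2650.2 and 2266 in WT and 1873, 1206 and 1651 in APP-KI (log2 fold change -0.60, adjusted p = 0.163 by limma), and the ligand Tgfb1 at 514, 537 and 529 and 324, 413 and 509.

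Of 35 phagocytic and scavenger receptors, 3 rose (Axl, Scarb1 and Tyrobp) and 5 fell (Mrc1, Stab1, Siglec1, Cd33 and Siglech). Scarb1, an HDL receptor, rose from 35.4 ± 4.57 to 88.3 ± 2.24 (log2 fold change 1.27, adjusted p = 0.00322 by limma). Mrc1, the mannose receptor CD206, was at 253, 638 and 544 in WT and 88.2, 127 and 138 in APP-KI (log2 fold change -1.69, SE 0.24, adjusted p = 0.000674 by limma). Cd33, an inhibitory sialic acid receptor, was at 866, 818 and 807 and 389, 478 and 489 (log2 fold change -0.84, adjusted p = 0.0307 by limma). Stab1, a scavenger receptor, was at 1365, 1789 and 1668 and 605, 406 and 493 (log2 fold change -1.65, adjusted p = 0.000928 by limma). Of 7 measured phagocytic genes for which the study had primers, Tyrobp rose and Was, an actin regulator, fell from 148 ± 6.1 to 93.1 ± 10.8 (adjusted p = 0.0255 by limma). Cd33 lost its call without any WT library, APP-KI 4 or 6 or 2 of the 8 libraries without C3ar1 (adjusted p up to 0.252), and Was lost its call without any WT library or APP-KI 4 or 6 (adjusted p up to 0.121). Siglec1 lost its call without WT 5 or 6, APP-KI 4 or 6 or 3 of the 8 libraries without C3ar1 (adjusted p up to 0.144), and F13a1 lost its call without WT 5 or 6 or APP-KI 6 (adjusted p up to 0.119). Mrc1 and Siglec1 are also markers of border macrophages, which share the CD45 and CD11b gate in part. All 10 markers of these cells had a negative log2 fold change, 3 fell (Mrc1, Siglec1 and F13a1), the median was -1.09 and their sum was 507, 1357 and 1163 in WT 4, 5 and 6 and 332, 320 and 323 in APP-KI 4, 5 and 6. Lyve1 and Cd163 define perivascular macrophages. Lyve1 was at 9.94, 39.1 and 27.8 in WT and 11.2, 8.24 and 7.64 in APP-KI, and Cd163 at 56.6, 199 and 148 and 117, 40.1 and 42. WT 4 was lower than the other WT libraries for most of these markers. The part of border macrophages in the falls of Mrc1, Siglec1 and Stab1 was not tested.

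Of 35 genes linked to Alzheimer disease risk, 1 rose (Apoe) and 5 fell, with a median log2 fold change of -0.25. Those that fell were Cass4, a docking protein, from 38.3 ± 2.22 to 14.7 ± 3.78 (log2 fold change -1.53, SE 0.27, adjusted p = 0.00347 by limma), Cd33, Bin1, a membrane-curving protein, Adam10, an α-secretase, and Abi3, an actin regulator. Bin1 fell by 0.72, Adam10 by 0.70 and Abi3 by 0.68 on the log2 scale (adjusted p = 0.0475, 0.0389 and 0.0327 by limma). Bin1 lost its call without any WT library, APP-KI 5 or 6 or 6 of the 8 libraries without C3ar1 (adjusted p up to 0.236), and Adam10 and Abi3 lost their calls without any WT library, any APP-KI library or 3 of the 8 libraries without C3ar1 (adjusted p up to 0.331 and 0.288). Cass4 alone of the 5 kept its call whichever library was left out.

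Of 79 cytosolic ribosomal protein genes, 10 were called higher and none lower, 43 lay above WT in every APP-KI library and the median log2 fold change was 0.77. Over all genes, 2.22% were called higher and 12.9% lay above WT in every APP-KI library. Rpl41 was at 67.6, 89.5 and 87.6 in WT and 187, 220.1 and 241 in APP-KI (log2 fold change 1.52, adjusted p = 8.35e-05 by limma), and Rplp1 at 279.9, 311 and 349.7 and 424, 540.2 and 798 (1.02, adjusted p = 0.0227). Rplp1 lost its call without any WT library or APP-KI 5 or 6 (adjusted p up to 0.165). Ribosomal protein genes have many processed pseudogenes, which can take part of their reads. Cell-cycle genes held no call among 32, with a median of 0.06, and of -0.15 without APP-KI 5. Mki67, a proliferation marker, was at 27, 63.3 and 136 in WT and 39.8, 53.2 and 58.1 in APP-KI. Of 34 genes known to rise during warm dissociation, 2 were called higher, Ccl3 and Ccl4, and the early-response genes were not called. Fos was at 343, 409.8 and 646 in WT and 454, 199.7 and 257 in APP-KI, Jun at 783, 932 and 1139 and 2315, 771 and 628, and Egr1 at 184, 313 and 382 and 260.5, 126 and 129. The sum of the list was highest in APP-KI 4 (12561, against 5262 to 7604 in WT and 5370 and 5608 in APP-KI 5 and 6). Ccl3 was at 22.9, 48.6 and 57.2 in WT and 199.7, 226 and 226 in APP-KI and Ccl4 at 18.2, 42.4 and 51.7 and 105, 116 and 89.3. The part of warm dissociation in these 2 rises was not tested.

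The effect of APP-KI in all sorted microglia was set against that in C3aR-positive microglia by a test of the difference itself. No gene of 12583 passed an adjusted p-value under 0.05 (0%, limma, interaction term over 12 libraries), and at an unadjusted p-value under 0.05, 347 genes (2.76%) had a higher and 555 (4.41%) a lower effect in all sorted microglia. The count was also 0 under each of the 17 alternatives run with limma, and no other tool was run for this difference. In simulated data of 12377 genes the test found 19% of genes given a difference of 1 and 66% of those given a difference of 2 on the log2 scale. These differences too were put only in genes above a floor of mean reads, without a series effect or an outlying library. C3ar1 itself was at 70.8, 81 and 37.5 in WT C3aR+ and 382, 251 and 201 in APP-KI C3aR+, the former near the level of mice without C3ar1 (57.8 ± 15.6 in C3aR-KO, SD, n = 3), so that its log2 fold change was 2.14 there and -0.13 in all sorted microglia (difference -2.17, unadjusted p = 0.000485, adjusted p = 0.666 by limma). The gate of those cells was set on a reporter in C3ar1, so that this gene is no independent readout there. Its mean in WT C3aR+ was 63.1, below the 315 of WT not selected on C3aR. The cause of this difference was not tested. Il1b, which was not part of the gate, had 1.96 and -0.60 (difference -2.33, unadjusted p = 0.000465, adjusted p = 0.666 by limma). Side by side, the log2 fold changes in C3aR-positive and in all sorted microglia were for Gpnmb 8.40 and 8.79, Csf1 4.12 and 4.84, and Itgax 4.76 and 5.17. List medians for lysosomal, interferon and cell-cycle genes were 0.92, 1.28 and 1.09 in C3aR-positive microglia and 0.17, 0.22 and 0.06 in all sorted microglia, with 29, 22 and 11 genes called higher against 2, 0 and 0, and 4, 0 and 1 called lower against none. Calls were more frequent in C3aR-positive microglia over all genes too (13% against 2.22% higher and 9.71% against 1.93% lower). Not all list medians lay so far apart in the 2 sets. In C3aR-positive and in all sorted microglia they were -0.61 and -0.71 for homeostatic genes and -0.11 and -0.09 for the TGF-β pathway. For Alzheimer disease risk genes they were -0.31 and -0.25, and for the lipid genes of the study 2.41 and 1.31. These list differences were not tested. All C3aR-positive libraries belong to a library series of their own and to another cross, so that sort, series and cross cannot be told apart in them.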

How the data were processed

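RNA of sorted microglia was sequenced from 20 libraries (SMARTer total RNA kit, Illumina), 6 of which were compared here. Per the study's methods and processing notes, reads were trimmed with cutadapt, aligned to mm10 with TopHat2 and counted per gene with featureCounts. Whether the kit's molecular identifiers and strand were used in counting is not given in the sources used here. The authors deposited 1 signal value per gene and library under the name FPKM. In every library these values were whole read counts divided by 1 number, the 75th percentile of that library's counts, with no division by gene length. All values gave back whole reads to within 0.01 read. PCR duplicates may remain in them.

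Deposited values were multiplied by 35.1 to give scaled values. Reads per library ran from 44418448 to 76607863 in the 6 libraries. Genes with a mean of at least 1 over the 14 libraries not selected on C3aR (12402 of 21315) were tested with limma 3.58.1 (trend) on log2(value + 1), with 4 genotypes and the library series as terms, and p-values were adjusted by Benjamini and Hochberg. A fold change on this scale understates that of low genes. The C3aR-positive libraries were fitted apart, and the difference of effects over 12 libraries. edgeR 4.0.16 (quasi-likelihood) and DESeq2 1.42.0 were run on the recovered reads as alternatives. The scripts were tested on simulated data.

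Groups came from the labelled genotype, sort and replicate, and the series from the prefix of the library number. The members and gene lists were chosen with earlier results of these data known. Genes named were App and C3ar1, the 10 largest rises and falls among called genes whose groups do not overlap, the 5 called genes with the highest mean scaled value over the 6 libraries in each direction, and list members. Ablim1 and Acacb were named after their values were seen. Promoters came from the RefSeq annotation of GRCm38.p6. Replicate libraries differed by more than counting noise, with chi-square per degree of freedom from 26.0 to 536. Single genes of some lists are counted but not reported here.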

Additional observations from a re-analysis of the deposited data

Results flagged for a closer look

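Reads on the 1441 olfactory and vomeronasal receptor genes, most of which were too low to be tested, stood out in APP-KI 5. The median receptor gene had 49 reads there and 0 in each of the other 5 libraries, and 99.7% of these genes had reads against 15.4% to 20.3%. They took 0.209% of the reads of APP-KI 5 and between 0.0043% and 0.0443% of the others. Without APP-KI 5 the comparison gave 234 genes higher and 177 lower.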

How the results depend on the processing

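The counts of 275 genes higher and 239 lower were recomputed under other processing choices. They were within 1.5 times of these under a pseudocount of 0.1 (245 and 226), a filter at 5 (256 and 251), median ratio scaling (290 and 192), no series term (224 and 192), edgeR (225 and 184) and DESeq2 (412 and 309). Without a filter the lower count was 155, without a trend 117, and with the 6 libraries alone 116. Library weights gave 845 and 845, and an adjusted p-value under 0.0005 gave 64 and 11. Leaving out each of the 14 libraries gave 152 to 415 higher and 66 to 422 lower, and the difference from C3aR-positive microglia stayed at 0 genes.

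Of alternatives chosen after the data were seen, series B alone gave 43 and 1, series C alone 1183 and 1176, the Y-linked level as a term 315 and 316, and edgeR without APP-KI 5 gave 199 and 120. Each series fit holds 1 lone library of WT or of APP-KI, which is assumed to vary like the other groups. The replicate block, with the number 4, 5 or 6 as a term, gave 371 and 302. The deviations of same-numbered WT and APP-KI libraries from their genotype mean correlated at 0.25, 0.09 and 0.11, and WT 6 correlated more with APP-KI 5 (0.20) than with APP-KI 6, so that the numbers were not taken to pair the libraries. At this depth and size, 24% of genes changed by 1 on the log2 scale were found in simulated data of 12173 genes, with changes put only in genes above a floor of mean reads.

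Over 144 genes named and 29 alternatives, 3452 of 4172 values kept direction and call, 601 kept the direction and lost the call, 77 gained a call and 42 reversed. The genes whose direction reversed were not called with all libraries, and the cause was not tested. App had 0.0088 with library weights, 0.27 in series C alone and -0.33 to 0.0859 without 1 library in place of -0.13. C1qa had -0.25 without the series term, -0.0572 with the 6 libraries only, -0.25 with the replicate block, -0.13 with edgeR without APP-KI 5, -0.40 in series B alone, -0.11 with the Y-linked level as a term and -0.15 to 0.33 without 1 library in place of 0.0281. C3ar1 had 0.21 in series C alone and -0.41 to 0.17 without 1 library in place of -0.13. Cd163 had 0.27 in series B alone in place of -0.83. Ifit3 had 0.27 in series B alone and -0.95 to 0.37 without 1 library in place of -0.35. Il1b had 0.12 in series B alone in place of -0.60. Jun had 0.0073 with median ratio scaling, 0.14 without the series term, 0.0282 with the 6 libraries only, 0.14 with the replicate block, 0.0502 with edgeR, 0.0652 with DESeq2, 0.31 with edgeR without APP-KI 5, 0.77 in series B alone, 0.16 with the Y-linked level as a term and -0.52 to 0.25 without 1 library in place of -0.04. Mef2c had -0.18 with library weights and -0.0587 to 0.19 without 1 library in place of 0.0496. Mki67 had 0.0405 with the 6 libraries only, 0.75 in series B alone and -0.89 to 0.29 without 1 library in place of -0.19. Tgfb1 had -0.28 to 0.0552 without 1 library in place of -0.19.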

Other observations

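Of 20 olfactory and vomeronasal receptor genes with enough reads to be tested, 3 were called higher, and they are named after their values were seen. Olfr111 was at 21.8, 12.8 and 15.9 in WT and 202, 102 and 88.6 in APP-KI (log2 fold change 2.51, SE 0.37, adjusted p = 0.00102 by limma). Olfr112 was at 0.975, 1.02 and 0.991 and 35.9, 12.1 and 8.18 (log2 fold change 2.87, adjusted p = 0.00636 by limma), and Olfr115 at 0.222, 0.251 and 0.431 and 14.3, 5.81 and 2.84 (log2 fold change 2.33, adjusted p = 0.014 by limma). Olfr112 lost its call without WT 4 (adjusted p up to 0.0803), and Olfr115 lost its call without WT 4 or 5 (adjusted p up to 0.168). In all 3 genes APP-KI 4 was the highest library. The source of these reads was not tested. Their log2 fold changes in C3aR-positive microglia were 2.41, 3.16 and 2.44, all called higher there, and in mice without C3ar1 0.97, 3.08 and 2.26, of which the first was not called. Olfr110, whose libraries were also apart at 2.33, 3.03 and 3.14 in WT and 10.6, 12.5 and 11.2 in APP-KI, was not called (adjusted p = 0.162 by limma). These receptor genes are alike in sequence, so that reads may be split between them.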
